A study of Mus musculus with 48 samples.

Results

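The data describe 7 genes of the GABA-A receptor, Gabra2, Gabra3, Gabra4, Gabra5, Gabrb1, Gabrb2 and Gabrd, taken by mouse symbol from the 48709 Ensembl genes of the count files and followed across all 8 groups of the study. The study examined how loss of the actin nucleator formin 2 (Fmn2) relates to memory decline with age and to amyloid, and sequenced the RNA of 46 male mice on the C57BL/6J background. The Fmn2 experiment held wild type (n = 5) and Fmn2 knock out (Fmn2-/-, n = 5) mice of 3 months, and wild type (n = 3) and Fmn2-/- (n = 5) mice of 8 months. The amyloid cross, at 3 months, held mice labelled FMN2-/-_APP (n = 7) and FMN2 +/+ APP (n = 9); all of these carry the amyloid transgenes of the study, a mutant human APP among them, under the neuronal Thy1 promoter. A further set of 4 months held mice labelled APP (n = 6) and wild type (n = 6). The Fmn2 deletion is constitutive, so every cell of a knock out carries it. The tissue label reads dentate gyrus for all mice, but the titles of the 12 mice of 4 months name PFC (prefrontal cortex), and they are called PFC-titled mice here.

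GABA-A receptors are chloride channels opened by the transmitter GABA and carry most fast inhibition in the brain. Each channel is a ring of subunits, commonly alpha and beta subunits together with a gamma or a delta subunit. The alpha subunit shapes sensitivity to GABA and to benzodiazepines, and the delta subunit takes the place of gamma in receptors outside synapses, which answer to ambient GABA. In the dentate gyrus, the entry of the hippocampus, granule cells are held at low activity by such tonic inhibition, for which the subunits encoded by Gabra4 and Gabrd are known, while the product of Gabra5 is known for hippocampal tonic inhibition and that of Gabra3 for deep layers of the cortex.

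On GRCm38, Gabra2 (chr5:70957597-71095849, minus strand), Gabra4 (chr5:71569749-71658308, minus strand) and Gabrb1 (chr5:71658113-72149037, plus strand) lie side by side. The starts of Gabra4 and Gabrb1 face each other: the gene spans overlap by 196 bases and 46 exon bases belong to both. In an unstranded library, reads from these bases that covered no other exon bases could not be assigned to either gene. Gabra5 lies at chr7:57407672-57510059 on the minus strand and shares 148 exon bases with Gm9962 on the other strand, Gabrb2 at chr11:42419757-42629028 on the plus strand, Gabra3 at chrX:72432681-72656848 on the minus strand, and Gabrd at chr4:155384980-155398112 on the minus strand. The genes differ much in the length of their merged exons, from 2875 bases for Gabrd to 13838 for Gabrb1, so levels are compared between genes only after division by this length.

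The promoter windows below, from RefSeq on GRCm38.p6 and read 5′ to 3′ along the gene, are shown for the 3 alpha genes that differed most between tissues in all comparisons made. Each window runs from 250 bases before a transcript start to 50 after it, and capitals mark every CG dinucleotide.
Gabra3, chrX:72656870-72657169: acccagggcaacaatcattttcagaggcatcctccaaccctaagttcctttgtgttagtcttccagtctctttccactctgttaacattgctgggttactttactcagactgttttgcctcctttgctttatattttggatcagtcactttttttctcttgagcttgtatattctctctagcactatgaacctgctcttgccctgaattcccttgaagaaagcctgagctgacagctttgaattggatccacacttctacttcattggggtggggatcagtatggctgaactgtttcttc
Gabra2, chr5:71095800-71096099: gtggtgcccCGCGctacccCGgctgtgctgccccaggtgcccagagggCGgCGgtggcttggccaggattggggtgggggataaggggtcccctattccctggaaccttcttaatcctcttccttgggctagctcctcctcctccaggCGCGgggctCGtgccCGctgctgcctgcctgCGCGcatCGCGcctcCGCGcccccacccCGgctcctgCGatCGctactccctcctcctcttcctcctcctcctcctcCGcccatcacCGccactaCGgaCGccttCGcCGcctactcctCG
Gabra5, chr7:57510010-57510309: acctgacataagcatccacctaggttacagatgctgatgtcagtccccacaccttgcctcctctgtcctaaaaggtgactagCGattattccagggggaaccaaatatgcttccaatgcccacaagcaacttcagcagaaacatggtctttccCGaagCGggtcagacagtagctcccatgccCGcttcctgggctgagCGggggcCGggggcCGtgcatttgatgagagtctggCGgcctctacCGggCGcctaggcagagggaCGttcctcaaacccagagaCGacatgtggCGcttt
Neither of the 2 Gabra3 windows held a CG, as in 5.43% of all 32851 windows, whereas the Gabra2 window held 25 and the Gabra5 window 13, against a median of 7. Of the other members, the Gabra4 window held 12 CG, the Gabrb1 windows 9 and 25, and the 3 Gabrb2 windows 9 to 11. The letters GGGCGG, read on both strands, stood in windows of Gabra2, Gabra4 and Gabrb2 and in 35.7% of all windows.

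Before the results, some libraries need mention. The mice held 6818809 to 43921030 counted reads. The lowest depths were at 8 months, in wild type replicates 2 and 3 (6818809 and 8381078 reads) and in the Fmn2-/- mice (9175551 to 11675280 reads). Fmn2 itself stood at 93.2 to 109 CPM (read counts scaled to library size) in wild type and 22.2 to 27.4 in Fmn2-/- mice of 3 months, but at 83.3 to 101.8 CPM in the mice labelled FMN2-/-_APP and at 18.9 to 23.4 in those labelled FMN2 +/+ APP, so these labels go against the level of the gene and directions in this cross are given by label. Fmn2-/- replicates 2 and 3 of 8 months gave a chi-square per degree of freedom of 1.62. Repeat runs of one and the same mouse gave 1.72 and 2.15 in the mice run on 2 lanes. This measure rises with depth. The pair held 9175551 and 9943023 reads, and the mice run on 2 lanes held 39403392 and 41603296 over both runs. Whether the pair is as close as repeat runs can therefore not be told, and the Gabrb2 result is also given with both summed as 1 sample. Summed markers of granule cells (Prox1, Dsp, C1ql2, Tdo2, Lct and Dock10) stood at 609 to 1120 CPM in the dentate gyrus mice and at 41.6 to 73.3 in the PFC-titled mice, where Dsp was at 0.03 to 0.33 CPM. Summed markers of cortical projection neurons stood at 120 to 351 CPM and at 638 to 729 CPM, respectively, so the granule cell markers of the tissue in their label were far lower in the PFC-titled mice, though Prox1 (11.4 to 20.4 CPM) and Dock10 (26.3 to 49.8 CPM) were still detected. Summed markers of the choroid plexus, a tissue beside the hippocampus, reached 4126 CPM in Fmn2-/- replicate 4 of 3 months and 5998 and 9135 in replicates 5 and 4 of the mice labelled FMN2 +/+ APP, and at most 607 CPM in any other mouse. Summed markers of the CA fields of the hippocampus (Fibcd1, Wfs1, Mpped1, Bok, Iyd and Cpne4) stood at 317 to 574 CPM in the dentate gyrus mice. They stood at 498 to 644 CPM in the PFC-titled mice, so the ranges overlap. The part of CA cells in the levels of the members was not tested. In whole tissue, fewer cells of a type and less RNA per cell cannot be told apart.

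Gabra5 was the most abundant member per length in the dentate gyrus. In wild type mice of 3 months, its level was 94.9 ± 9.89 CPM per kb of exon (mean and SD, n = 5), followed by Gabra2 at 50.3 ± 3.69 and Gabra4 at 32.7 ± 1.80, and the ranges of these genes over the mice did not overlap. Gabrb1 (24.2 ± 1.53), Gabrb2 (20.1 ± 4.61), Gabrd (13.8 ± 1.58) and Gabra3 (11.7 ± 4.16) followed, and in this lower part of the order the ranges of neighbours overlapped. Divided by the longest transcript instead of all exons, Gabrb2 came before Gabrb1. In wild type PFC-titled mice (n = 6), the order was another one. Gabra3 came first with 54.4 ± 3.32 CPM per kb, then Gabrd with 25.5 ± 1.11, Gabra5 with 22.999 ± 2.37, Gabra4 with 21.0 ± 0.683, Gabrb2 with 16.1 ± 0.808, Gabra2 with 13.4 ± 2.26 and Gabrb1 with 11.6 ± 0.758. Gabra3 and Gabra4 were each clear of the gene below them, and the ranges of the remaining neighbours overlapped. With the longest transcript the order after Gabra3 was Gabra4, Gabrd, Gabrb2, Gabra5, Gabra2 and Gabrb1. The last place in one tissue was thus the first in the other for Gabra3.

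**Figure D1:**
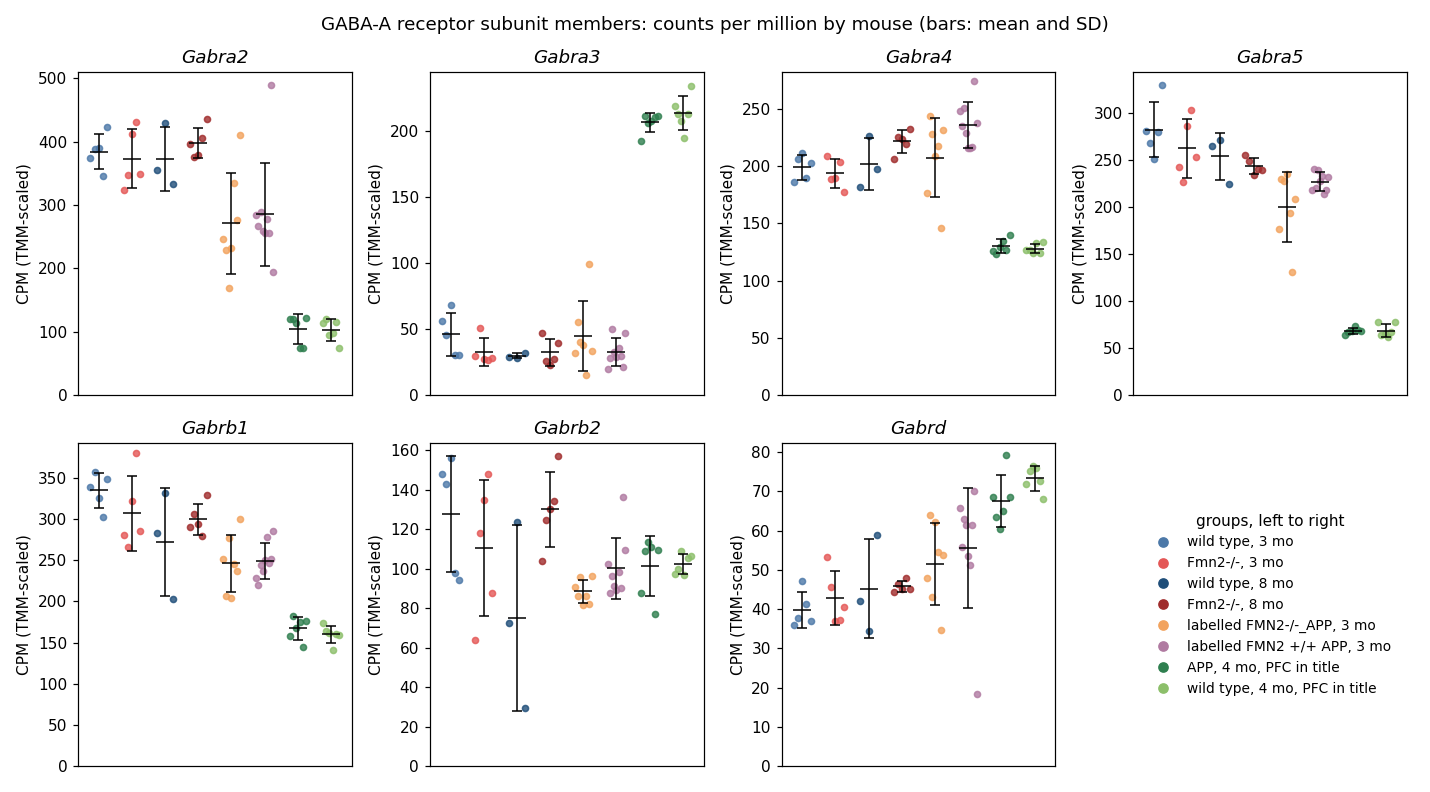
CPM (TMM-scaled) of each member, 1 panel a gene, with 1 point a mouse and bars for mean and SD of the 8 groups in the order of the legend. In the panels of Gabra2, Gabra3, Gabra4, Gabra5 and Gabrb1 the 12 PFC-titled mice, rightmost, lie apart from all 34 dentate gyrus mice. In those of Gabrb2 and Gabrd they do not. The share of all genes that lie apart in this way was not computed. Between wild type PFC-titled and dentate gyrus mice, 45.1% of all genes tested were called, so the separation cannot be read as particular to these members.

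Among the 4 alpha genes, the make-up differed between the tissues. Gabra5 made up 49.996% ± 3.44 of the summed alpha level per kb in wild type mice of 3 months, Gabra2 26.5% ± 0.808, Gabra4 17.3% ± 1.12 and Gabra3 6.19% ± 2.26 (n = 5). In wild type PFC-titled mice, Gabra3 held 48.6% ± 1.29, Gabra5 20.5% ± 1.31, Gabra4 18.8% ± 1.06 and Gabra2 12.004% ± 2.04 (n = 6). In these wild type mice the share of Gabra4 differed least. The summed alpha level itself was 190 ± 10.8 CPM per kb in the former and 112 ± 5.12 in the latter, and the sum of both beta genes 44.3 ± 5.23 and 27.7 ± 1.17. In the other dentate gyrus groups the mean share of Gabra5 lay between 45.3% and 49.7% and that of Gabra3 between 4.35% and 7.92%, and in the APP PFC-titled mice they were 20.7% and 47.7%. The share of Gabra4 was higher in the cross, at 24.2% ± 1.16 (label FMN2 +/+ APP, n = 9) and 22.9% ± 2.31 (label FMN2-/-_APP, n = 7), than in the APP PFC-titled mice (19.4% ± 0.747, n = 6), and the ranges of the first and the last did not overlap.

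**Figure D2:**
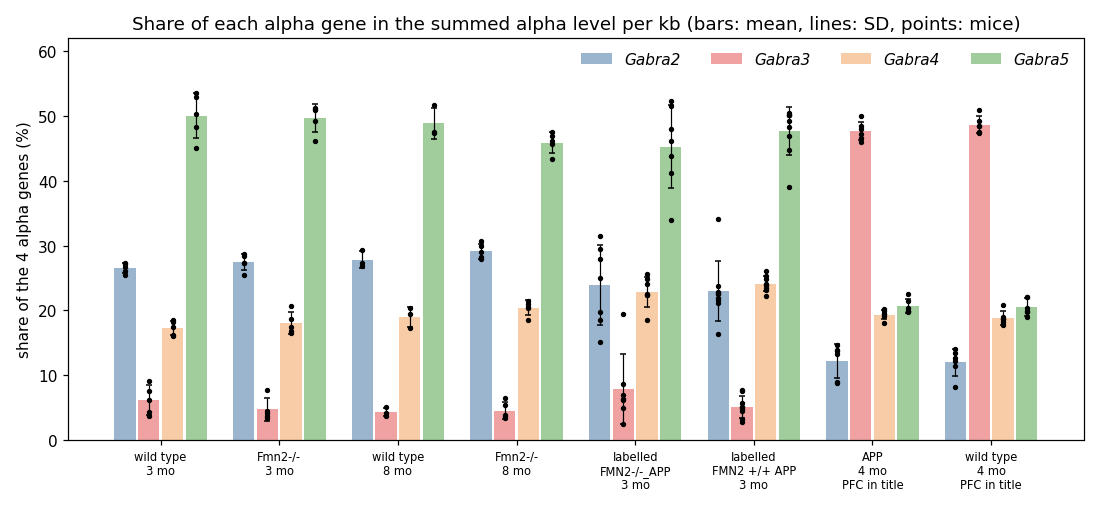
Share (%) of each alpha gene in the summed level per kb of the 4 alpha genes, by group, with bars for the mean, lines for the SD and points for mice. Gabra5 is the tallest bar in the 6 dentate gyrus groups (45.3% to 49.996%) and Gabra3 in the 2 PFC-titled groups (47.7% and 48.6%).

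The first comparison set wild type PFC-titled mice of 4 months against wild type dentate gyrus mice of 3 months. The groups share no sample and carry the same lane number, which does not show that they were sequenced together. They differ in age and experiment as well as in the tissue of the title, and these cannot be told apart. A gene was called at an adjusted p under 0.05 (edgeR quasi-likelihood test, Benjamini-Hochberg over all genes tested) and a log2 fold change of at least 0.5. The background was high: 45.1% of the 16661 genes tested were called, 23.8% higher and 21.3% lower in the PFC-titled mice. Of the 7 members, 6 were called, 4 lower and 2 higher, with a median log2 fold change of -0.69 beside -0.01 over all genes. The size of the changes, rather than their number, is what the values below show.

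Gabra3, Gabra5 and Gabra2 held the largest changes. Gabra3 stood at 55.6, 45.1, 67.7, 29.9 and 30.5 CPM in the wild type mice of 3 months and at 195 to 234 CPM, median 213, in the PFC-titled mice (log2 fold change 2.17, SE 0.18, adjusted p = 3.82e-08). The groups lie far apart, and the dentate gyrus mice split into 3 with higher and 2 with lower values. Gabra5 was at 281, 268, 252, 280 and 330 CPM in the former and at 61.4 to 77.3, median 65.7, in the latter (-2.09, SE 0.08, adjusted p = 1.02e-11). Gabra2, a subunit gene of synaptic receptors on the axon initial segment, was at 374, 389, 390, 345 and 423 CPM against 73.9 to 120, median 105.6 (-1.96, SE 0.10, adjusted p = 3.37e-10). No mouse of one tissue reached the other in either gene. Gabra4 changed least among the alpha genes, from 186, 207, 211, 189 and 203 CPM to 124 to 133, median 127 (-0.69, SE 0.04, adjusted p = 1.82e-09). With offsets for gene length and GC content its value was -0.49, under the minimum fold, so its call depends on that choice.

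Of the beta and delta genes, Gabrb1 and Gabrd changed more than Gabra4 and less than the other alpha genes. Gabrb1 was at 339, 357, 326, 303 and 348 CPM in wild type mice of 3 months and at 141 to 173, median 161, in the PFC-titled mice (-1.11, SE 0.05, adjusted p = 1.35e-10), again with no overlap. Gabrd rose, from 35.9, 37.6, 47.1, 41.2 and 36.9 CPM to 68.03 to 76.5, median 73.9 (0.83, SE 0.07, adjusted p = 3.27e-08). Gabrb2 was at 148, 143, 156, 97.8 and 94.5 CPM and at 97.1 to 109, median 102.6 (-0.37, SE 0.12, adjusted p = 0.0104). The dentate gyrus mice lie on either side of the narrow PFC-titled range, and the difference stayed under the minimum fold.

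**Figure D3:**
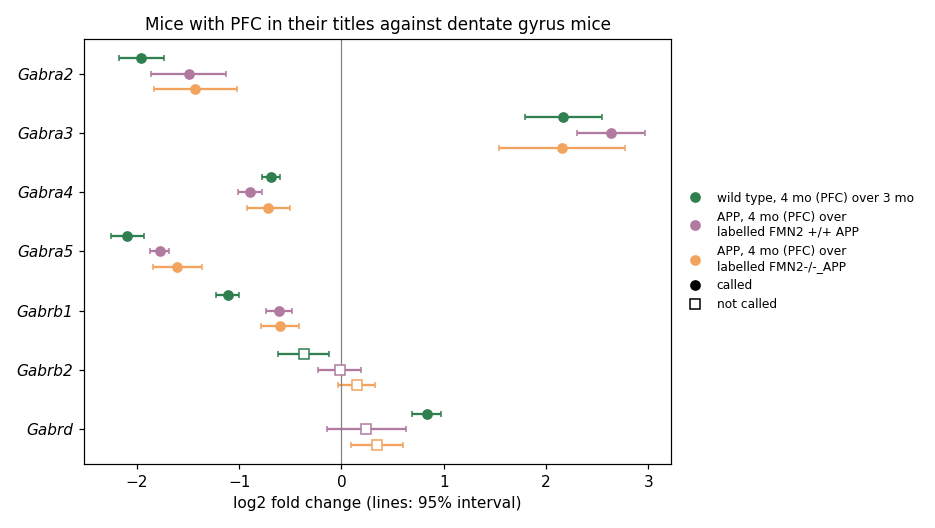
Log2 fold change (x axis, lines for the 95% interval) of each member between PFC-titled and dentate gyrus mice in 3 comparisons, with filled circles for called genes and open squares for the rest. Gabra3 lies at 2.16 to 2.63 and Gabra2, Gabra4, Gabra5 and Gabrb1 lie below 0 in all 3, whereas Gabrd is called in 1 and Gabrb2 in none.

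The same question was put to mice with amyloid transgenes. PFC-titled APP mice (n = 6) were compared with each dentate gyrus group of the cross. Both comparisons share the APP mice, and neither shares a mouse with the wild type comparison. Against the mice labelled FMN2 +/+ APP, 45.9% of 17167 genes were called (23.8% higher, 22.1% lower), and against those labelled FMN2-/-_APP 43.5% of 16948 (22.6% higher, 20.9% lower). Of the members, 5 were called in each, Gabra3 higher and Gabra2, Gabra4, Gabra5 and Gabrb1 lower.

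Gabra3 was at 193 to 211 CPM, median 209, in the APP mice, at 19.9 to 49.9, median 29.7, in the mice labelled FMN2 +/+ APP and at 15.0 to 98.9, median 37.8, in those labelled FMN2-/-_APP. Its log2 fold change was 2.63 (SE 0.16, adjusted p = 1.03e-10) and 2.16 (SE 0.29, adjusted p = 8.58e-06). The 98.9 CPM came from replicate 7, and without it the latter value was 2.49. Gabra5, at 63.4 to 73.2 CPM in the APP mice, had log2 fold changes of -1.78 (SE 0.04, adjusted p = 1.45e-15) and -1.60 (SE 0.11, adjusted p = 8.21e-09). Gabra2, at 73.7 to 122 CPM, had -1.49 (SE 0.17, adjusted p = 5.35e-07) and -1.43 (SE 0.19, adjusted p = 7.59e-06). Over all 3 comparisons these 3 genes differed by factors of 2.69 to 6.20.

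Gabra4 (-0.89 and -0.72) and Gabrb1 (-0.61 and -0.60) were called with smaller values. Gabrd was not called: 0.24 (SE 0.18, adjusted p = 0.245) against the mice labelled FMN2 +/+ APP, or 0.13 (adjusted p = 0.122) without replicate 9 of these, and 0.35 (SE 0.12, adjusted p = 0.0169, under the minimum fold) against those labelled FMN2-/-_APP. Its dentate gyrus level was 55.6 ± 15.2 CPM (n = 9) and 51.5 ± 10.4 (n = 7) in the cross and 39.7 ± 4.55 (n = 5) in the wild type mice of the Fmn2 experiment, and 67.5 ± 6.50 and 73.3 ± 3.18 in the APP and wild type PFC-titled mice (n = 6 each). Gabrb2 was at -0.02 and 0.15 in the same comparisons and is the member closest to an equal level in both tissues. Whether the sizes differ between wild type and transgenic mice was not tested, since experiment and genotype cannot be told apart.

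Loss of Fmn2 was examined next, with a minimum log2 fold change of 0.25. At 3 months, none of the 7 members was called, beside 0.0301% of the 16630 genes tested (5 genes), and none had an unadjusted p under 0.05, where 1750 genes did. The widest value was that of Gabra3, -0.50 (95% interval -1.03 to 0.02, adjusted p = 0.486), and those of Gabra2, Gabra4, Gabra5, Gabrb1 and Gabrd lay between -0.13 and 0.10. Gabra3 stood at 29.7, 50.7, 27.3, 26.8 and 27.99 CPM in the Fmn2-/- mice. Replicate 2, at 50.7 CPM, lay within the range of the wild type mice, and the others lay below the lowest wild type value (29.9 CPM). Summed markers of cortical projection neurons stood at 228 to 351 CPM in the 4 of 10 mice with the most Gabra3 (45.1 to 67.7 CPM; wild type replicates 1, 2 and 3 and Fmn2-/- replicate 2), and at 192 to 232 CPM in the other 6, where Gabra3 was at 26.8 to 30.5 CPM. The 2 ranges of the summed markers overlap in 1 mouse of either set. The part of such cells in the difference was not tested. Gabrb2 was at 63.997, 118, 135, 148 and 87.8 CPM in the Fmn2-/- mice, spread as widely as in wild type, with a log2 fold change of -0.22 (SE 0.21, adjusted p = 0.751). Fitted together with lane, it was -0.99 (adjusted p = 0.193), where all wild type mice and 1 Fmn2-/- mouse carry the same lane number.

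At 8 months, none of the members was called either, beside 1.13% of 14665 genes (166 genes), and 1 member, Gabrb2, had an unadjusted p under 0.05, where 3419 genes did. The count of all genes called was not firm. It was 34 with length and GC offsets, 4 with the replicate block, 3 with lane and 694 with DESeq2. With Fmn2-/- replicates 2 and 3 summed it was 5, and with any 1 Fmn2-/- mouse left out 4 to 10. Gabrb2 encodes a beta subunit common in synaptic receptors. It stood at 72.6, 124 and 29.3 CPM in the 3 wild type mice and at 104.1, 125, 130, 134 and 157 CPM in the Fmn2-/- mice. The wild type mice spread widely, and the highest lies inside the Fmn2-/- range. The log2 fold change was 0.82 (95% interval 0.15 to 1.48, adjusted p = 0.146), or 0.82 (adjusted p = 0.224) with Fmn2-/- replicates 2 and 3 summed. Without wild type replicate 2 it was 1.30 (adjusted p = 0.00516, called), and without replicate 3 it was 0.45 (adjusted p = 0.196), so single mice decide this value. Without replicate 2, 3087 of all 15021 genes tested were called. Gabrb2 was also called with no filter on low counts (0.81, SE 0.14, adjusted p = 2.54e-05), where 1124 of all 28588 genes tested were called. The other 6 members lay between -0.05 (Gabra5) and 0.15 (Gabrb1), and their intervals reached at most 0.57 (Gabra3).

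Gabrb1 and Gabrd were also at their extremes in wild type replicate 3 of 8 months. Gabrb1 was at 283, 332 and 202 CPM in these mice, against 290, 306, 293, 279 and 329 in Fmn2-/- mice. Gabrd was at 42.2, 34.4 and 59.002 CPM, against 44.5, 46.4, 45.2, 48.0 and 45.2. In that mouse both beta genes were thus lowest and Gabrd highest. It held 8381078 reads, replicate 2 held 6818809 and replicate 1 43921030. The part of depth was not tested.

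**Figure D4:**
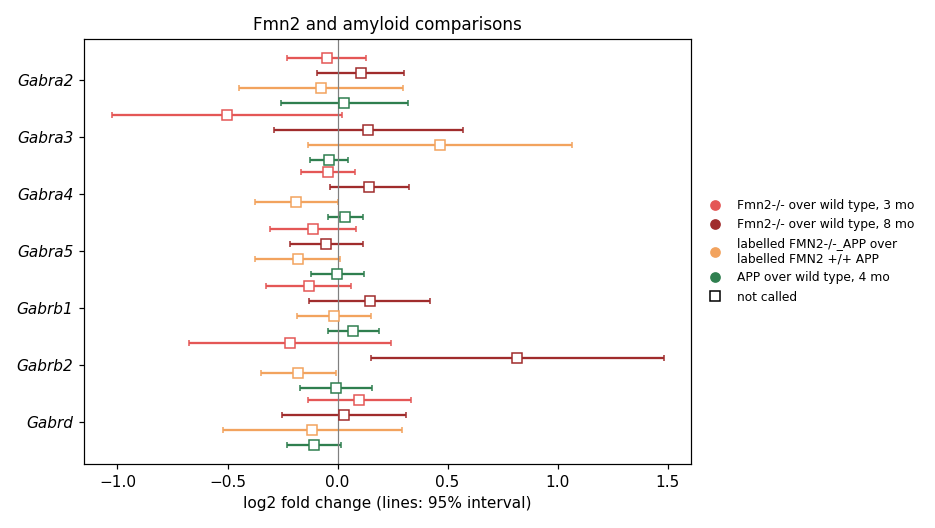
Log2 fold change (x axis, lines for the 95% interval) of each member for loss of Fmn2 at 3 and 8 months, for the cross by its labels, and for APP over wild type in PFC-titled mice; open squares mark genes that were not called, here all. The widest values are those of Gabrb2 at 8 months (0.82) and Gabra3 at 3 months (-0.50) and in the cross (0.47).

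The difference of the 2 Fmn2 effects, 8 months over 3 months, was called for none of the members beside 3.73% of 17046 genes (635 genes), and 1 member, Gabrb2, had an unadjusted p under 0.05, as 3910 genes did. This count of genes called was 27 with length and GC offsets, 0 with the replicate block and 1406 with DESeq2. With Fmn2-/- replicates 2 and 3 of 8 months summed it was 227. Gabrb2 had the largest value (1.02, SE 0.41, adjusted p = 0.144), which was 1.52 (adjusted p = 0.0142) without wild type replicate 2 of 8 months and 0.67 (adjusted p = 0.336) without replicate 3. Without the former mouse Gabra4 was called too, at 0.28 (adjusted p = 0.0468), and 2791 of all 17545 genes tested were called in that fit. With all mice, Gabra3 had the next largest value after Gabrb2, 0.63 (SE 0.37, adjusted p = 0.311). Age itself, 8 over 3 months, gave no call among members in wild type mice (9.21% of all genes) or in Fmn2-/- mice (6.44%). At an unadjusted p under 0.05 there were 3 members and 4653 genes in the former, and 1 member and 3852 genes in the latter. In wild type mice Gabrb2 was at -0.78 (SE 0.32, adjusted p = 0.116), Gabra3 at -0.63 (SE 0.28, adjusted p = 0.154) and Gabrb1 at -0.29 (SE 0.12, adjusted p = 0.132). Without wild type replicate 2 of 8 months, Gabrb2 (-1.27, adjusted p = 0.0116) and Gabrb1 (-0.46, adjusted p = 0.0185) were called, beside 2994 of all 17545 genes tested. Without replicate 3 they were at -0.42 (adjusted p = 0.449) and -0.14 (adjusted p = 0.572). The mice of 3 months were sequenced on other lanes than those of 8 months within each genotype, so age and lane cannot be told apart. In Fmn2-/- mice Gabra4 was closest to a call, with 0.20 (SE 0.06, adjusted p = 0.0503), below the minimum fold. Its levels there were 209, 189, 190, 204 and 177 CPM at 3 months and 206, 226, 224, 220 and 233 at 8 months, so 1 mouse of the older group lay within the younger range.

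In the cross, with a minimum of 0.5, none of the members was called beside 0.774% of 16656 genes, and 2, Gabra4 and Gabrb2, had an unadjusted p under 0.05, as 2772 genes did. Taken as mice labelled FMN2-/-_APP over those labelled FMN2 +/+ APP, Gabra4 was at -0.19 (SE 0.09, adjusted p = 0.300), Gabra5 at -0.18 (SE 0.09, adjusted p = 0.331) and Gabrb2 at -0.18 (SE 0.08, adjusted p = 0.274). Gabra4 was at 146 to 244 CPM, median 218, in the former and at 216 to 275, median 235, in the latter, and the ranges overlap. Gabra3 had the largest value, 0.47 (SE 0.29, adjusted p = 0.438), which fell to 0.12 without replicate 7 of the former. That mouse had the highest Gabra3 of all 34 dentate gyrus mice and the lowest Gabra4 (146 CPM) and Gabra5 (131 CPM) of them. It also held 75.0 CPM of Gabrq and 15.1 of Gabre, genes of the theta and epsilon subunits of the same family, which stood at 0.113 to 2.77 and 0.0961 to 0.285 CPM in the other 6 mice of its group. Of all 34 dentate gyrus mice it had the lowest summed granule cell markers (609 CPM) and the highest summed interneuron markers (983 CPM), and its summed oligodendrocyte markers (2269 CPM) were the highest of its group. Their part in its values was not tested.

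APP over wild type in PFC-titled mice was called for none of the members beside 2.34% of 16733 genes, and none had an unadjusted p under 0.05, where 2396 genes did. DESeq2 called no member in this or in any of the preceding comparisons of genotype or age. Their values lay between -0.11 (Gabrd, SE 0.06, adjusted p = 0.430) and 0.07 (Gabrb1, SE 0.06), and all 95% intervals lay within -0.26 and 0.32, the widest being that of Gabra2. The APP mice carry one lane number and the wild type mice another, so lane and genotype cannot be told apart.

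The rest of the GABA system, a list of 39 genes for the other receptor subunits, scaffolds, transmitter synthesis, uptake and chloride transport, was compared between tissues as well. Of its 34 genes tested in the wild type comparison, 6 were higher and 7 lower in PFC-titled mice, beside 23.8% and 21.3% of all genes, with a median of -0.02, so the number called is not a result about the list. Gabrg3, a gamma subunit gene, was higher by 1.14 (SE 0.07), and by 1.64 and 1.47 against the 2 groups of the cross. Slc12a5, the neuronal chloride exporter that sets the driving force of the receptor, was higher by 1.02, 0.85 and 0.66, and Nlgn2, an adhesion protein of inhibitory synapses, by 0.88, 0.76 and 0.69. Gabarap, a protein that binds receptors in transport, was lower (-0.88, -0.73 and -0.65). Gabrq was higher in the wild type comparison (1.53, SE 0.38), but at low levels with overlapping ranges. It stood at 0.13 to 0.90 CPM in the wild type dentate gyrus mice of 3 months and at 0.76 to 1.74 in the wild type PFC-titled mice. Against the mice labelled FMN2-/-_APP it was lower (-3.24, SE 1.16), a value that was -0.19 (not called) without replicate 7. In the cross comparisons, 6 of 34 were higher and 7 lower against the mice labelled FMN2 +/+ APP, and 5 of 33 higher and 6 lower against the others, with medians of -0.01 and -0.05. Among these, Plcl2 (1.04 and 0.95) rose and its relative Plcl1 (-0.84 and -1.03) fell, both being binding partners of receptor subunits, while Gabrr1, a rho subunit gene (-1.99), and Slc6a13, a GABA transporter (-0.85), were lower against the mice labelled FMN2 +/+ APP.

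Loss of Fmn2 at either age, the difference between the ages, the cross and APP gave no call in this list, with 32 to 34 genes tested. With age, where lane again cannot be told apart from it, 3 of 34 fell in wild type mice, beside 9.21% of all genes called, so the number is near the background. Among them were Gabrg3 (-0.50, SE 0.13, adjusted p = 0.0158) and the GABA transporter Slc6a11 (-0.28). In Fmn2-/- mice 4 of 34 rose and 1 fell with age, beside 6.44% of all genes called. Gabrg1 (0.46, SE 0.11, adjusted p = 0.0123), Gabarapl2 (0.31), Aldh5a1 of GABA breakdown (0.26) and Gad1 of GABA synthesis (0.25) rose, and the GABA-B receptor gene Gabbr2 fell (-0.27). None of these was also called in the other genotype. Whether the age effects differ was tested by the difference above, which called none of them.

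Within the dentate gyrus groups, a few pairs of members varied together or in opposite directions around their group means. Over 34 mice, the deviations of log2 CPM gave a Pearson r of 0.67 (Spearman rho 0.60) between Gabrb1 and Gabrb2, and -0.53 (rho -0.66) between Gabrb1 and Gabrd. These hold at 0.52 and -0.51 without the 2 mice farthest out in Gabrb1. Gabra4 and Gabra5 gave an r of 0.57, but a rho of 0.22 and an r of 0.18 without the 2 farthest mice. The pairs named here had the largest absolute r of all pairs of members, and the r of the others lay between -0.37 and 0.35. These are descriptions over mice of 6 groups with different depth. Gabrb1 and Gabrd are also the longest and the shortest of the members, with 40.9% and 54.7% GC in their longest transcripts, and the part of length and GC was not tested.

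Over all 46 mice, the genes whose log2 level followed each member most closely were Ust (r = 0.99) and Gpr22 (0.99) for Gabra5, Dpp10 (0.98) and Cxxc4 (0.98) for Gabra3, Stxbp6 (0.97) and Pkia (0.96) for Gabra4, Dock4 (0.96) and B4galt6 (0.96) for Gabrb1, and Adarb2 (0.95) for Gabra2. Gabrb2 had Lnpep (0.92) and Usp9x (0.91), and Gabrd had Fbxo27 (0.85) and Hace1 (0.81). These are among the highest of 14755 genes, and the likeness includes the gap between the tissues. Dpp10, for example, averaged 47.8 CPM in the dentate gyrus mice and 231 in the PFC-titled mice, and Ust 74.7 and 13.3.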

How the data were processed

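RNA of whole tissue was sequenced from 46 mice in 48 runs, 2 mice having been run on 2 lanes, and these runs were summed. Per the labels and the study's methods, the authors prepared unstranded TruSeq libraries from TRIZOL-extracted RNA, aligned reads with STAR to mm10 and counted them per gene with HTSeq; the deposited values are raw counts without normalization. Genes were named and measured from GENCODE on GRCm38, with 48349 of 48709 matched. Differential expression was tested with edgeR 4.0.16 (filterByExpr, TMM, quasi-likelihood F-test, Benjamini-Hochberg adjustment over all genes), within the groups compared or, for the age and interaction terms, over the 4 groups of the Fmn2 experiment. Calls required an adjusted p under 0.05 and a log2 fold change of at least 0.25 (Fmn2 experiment) or 0.5 (others). The SE is the absolute log2 fold change over the root of F. Levels are TMM-scaled CPM over all 46 mice, divided by merged exon length where genes are compared. Alternatives were DESeq2 1.42.0, other size factors, no filter, no minimum fold, length and GC offsets, lane, a replicate block and each mouse left out. The named genes were the members, up to 6 called genes of the GABA list with the largest change, and 2 genes most like each member with a mean of at least 1 CPM; further genes named (Gabrq, Gabre and Gabarap, Nlgn2, Slc12a5 outside the first 6) were taken after their values were seen. The members and lists were chosen with earlier results of these data known. The fit was tested on simulated data. Labels do not say whether samples of a group share a litter, so p-values measure the spread between these mice. The 95% intervals are the SE times the quantile of the t distribution at the degrees of freedom of the test. Some genes that these rules select are not reported here.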

Additional observations from a re-analysis of the deposited data

Results flagged for a closer look

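Of 49 sets of a member in a group of 4 to 10 mice, 5 held a mouse far from the others of its group, and chance alone flags about 1 in 20. Gabra3 was at 50.7 CPM in Fmn2-/- replicate 2 of 3 months, where the next mouse was at 29.7, and at 193 CPM in APP replicate 1 of 4 months, where the next was at 206. Among mice labelled FMN2 +/+ APP, replicate 8 had 489 CPM of Gabra2 (next 289) and 137 CPM of Gabrb2 (next 110). Replicate 9 had 18.3 CPM of Gabrd, where the next mouse was at 51.2. Summed interneuron markers were lowest of the group in replicate 8 (418 CPM) and summed astrocyte markers highest in replicate 9 (3459 CPM), and their part in these values was not tested.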

How the results depend on the processing

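Of the 155 alternative values of members called between tissues, 154 kept their direction and call, and 1 lost its call: Gabra4 in the wild type comparison with length and GC offsets (-0.49). Among 1063 alternative values of uncalled members, 75 changed sign over 26 results and 6 became called. Gabrb2 at 8 months was the 1 member called without the low-count filter, beside 1124 of 28588 genes. Leaving out each mouse in turn gave 0 to 1 members called at 8 months, 0 to 2 for the difference between ages and 0 to 2 for age in wild type, each upper value without wild type replicate 2 of 8 months. Without that mouse, 3087 of 15021, 2791 of 17545 and 2994 of 17545 genes were called in these comparisons, respectively. Omitting replicates 7, 8 or 9 of the cross in the tissue comparisons was chosen after seeing the data. Per-length levels moved in 34 of 56 cases with the longest transcript, and in 0 with other scaling. The causes were not tested.

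Sign changes concerned small values. Length and GC offsets gave Gabra2 0.053 and Gabra4 0.019 (loss of Fmn2, 3 months), Gabra2 -0.061 and Gabrb1 -0.037 (8 months), Gabra2 -0.012 and Gabra4 -0.011 (APP), Gabrb2 0.037 (tissue, label FMN2 +/+ APP), Gabra2 -0.13, Gabra4 -0.0074, Gabrb1 -0.0084 and Gabrd 0.11 (difference between ages), Gabra2 0.11 (age, wild type), and Gabra2 -0.017 and Gabra3 -0.061 (age, Fmn2-/-). Equal replicate numbers did not pair the mice (mean correlation 0.025 at 3 months and 0.070 in the cross). With the replicate block, no member was called for loss of Fmn2, the cross or APP, and signs changed for Gabra4 at 3 months (0.0044), Gabrb1 in the cross (0.0074) and Gabra5 with APP (0.0037). The replicate block with offsets gave Gabra2 0.064 and Gabra4 0.053 (3 months), Gabra2 -0.12, Gabra3 -0.016, Gabra4 -0.0095 and Gabrb1 -0.046 (8 months), Gabra2 -0.017 and Gabra4 -0.011 (APP), and Gabra2 -0.20, Gabra4 -0.062, Gabrb1 -0.0049 and Gabrd 0.0089 (difference between ages). Sequencing lane gave Gabra4 0.071 (3 months) and Gabrd -0.038 (8 months). Without the low-count filter, Gabra5 was at 0.0040 (APP) and Gabra3 at -0.024 (age, Fmn2-/-), and with median-ratio size factors Gabrb2 was at 0.0012 (tissue, label FMN2 +/+ APP). Leaving out mice gave ranges through 0 at 8 months for Gabra3 (-0.025 to 0.24), Gabra5 (-0.13 to 0.0017), Gabrb1 (-0.025 to 0.31) and Gabrd (-0.099 to 0.25), in the cross for Gabra2 (-0.21 to 0.062) and Gabrb1 (-0.080 to 0.023), with APP for Gabra2 (-0.052 to 0.11), Gabra5 (-0.028 to 0.036) and Gabrb2 (-0.044 to 0.060), between tissues for Gabrb2 (-0.0039 to 0.046, label FMN2 +/+ APP), for the difference between ages in Gabra5 (-0.011 to 0.12) and Gabrd (-0.21 to 0.16), and with age in wild type for Gabra2 (-0.16 to 0.015), Gabra4 (-0.071 to 0.097) and Gabrd (-0.048 to 0.32) and in Fmn2-/- for Gabra3 (-0.16 to 0.23) and Gabrb1 (-0.066 to 0.068).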
